A study of Oryctolagus cuniculus with 6 samples.

Results

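The osteoclast and giant cell genes were 10 genes chosen by symbol from the 17396 genes that were counted in rabbit facial nerve. 7 of them, ACP5, CTSK, NFATC1, DCSTAMP, OCSTAMP, ATP6V0D2 and ITGB3, are used as markers or effectors of the osteoclast, and the other 3, SPI1, SYK and BTK, are shared with macrophages and other myeloid cells. All 10 passed the filter on low counts, which kept 14003 genes. The question was whether the osteoclast-type genes were higher beside an implanted I-125 seed, or only the genes that macrophages use as well.

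Male wild-type Japanese white rabbits of 3 to 4 months had the main trunk of the facial nerve transected in both groups. In the FNI group (facial nerve injury) the wound was closed without a seed, and in the FNI+I-125 group 1 radioactive I-125 seed of 0.8 mCi was left near the cut nerve. Facial nerves were taken on day 14, and 3 mRNA libraries per group were sequenced. No inactive seed is described for the FNI group, so an implanted body and its radiation cannot be told apart, and the sham group was not analysed here.

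Osteoclasts are multinucleated cells that form when precursors of the monocyte and macrophage lineage fuse. CSF1 keeps the precursors alive, RANKL acts through its receptor RANK, and ITAM adaptors signal through the kinases SYK and BTK and through calcium to the transcription factor NFATC1. NFATC1 then switches on the fusion proteins DCSTAMP and OCSTAMP and the enzymes that dissolve bone. Macrophages around a foreign body also fuse, into giant cells, and use some of the same fusion proteins. A peripheral nerve holds no bone, but macrophages enter it in numbers after a cut and clear myelin.

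Each library held between 16031151 and 16798012 counts. Levels are given as CPM, that is, counts brought to one library size by TMM factors, and the 3 values of a group always follow the order of replicates 1, 2 and 3. Differences are given as log2 fold changes of FNI+I-125 over FNI with their standard error (SE). The quasi-likelihood test of edgeR gave the p-values, which were adjusted over the 14003 genes after Benjamini and Hochberg. They set the difference between the groups against the spread between these libraries. Schwann cell markers were present in every library, but the make-up of the tissue varied. FNI replicate 3 had the highest summed level of the Schwann cell list (35733 CPM against 707 to 7053 in the other 5 libraries) and the lowest of the macrophage list (298 CPM against 812 to 1828). FNI+I-125 replicate 1 had the highest of the neutrophil list (1506 CPM against 16.2 to 170). Salivary gland transcripts reached 58396 CPM in FNI replicate 2, and skeletal muscle transcripts 4878 and 4351 CPM in FNI+I-125 replicates 1 and 2. The Schwann cell list had 3771 CPM in FNI replicate 2, and 707 and 3628 CPM in FNI+I-125 replicates 1 and 2.

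All 10 genes had a higher mean in the FNI+I-125 group. None passed the adjusted threshold of 0.05 in edgeR. Of all genes tested, 0% passed it, and the smallest edgeR adjusted p was 0.141. At an unadjusted p under 0.05, all 3 genes shared with macrophages and 2 of the 7 osteoclast-type genes, CTSK and ITGB3, were higher, against 9.23% of all genes tested. The same 5 genes were those whose groups did not overlap, against 14.8% of all genes. DESeq2 called 2 of the 10 genes, SPI1 and SYK, at an adjusted p under 0.05 and a log2 fold change of at least 1.5, against 1.69% of all genes. The median log2 fold change was 1.74 for the shared genes and 2.74 for the osteoclast-type genes, against 0.013 for all genes tested. The larger median of the osteoclast-type genes came with a larger spread between libraries.

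**Figure D1:**
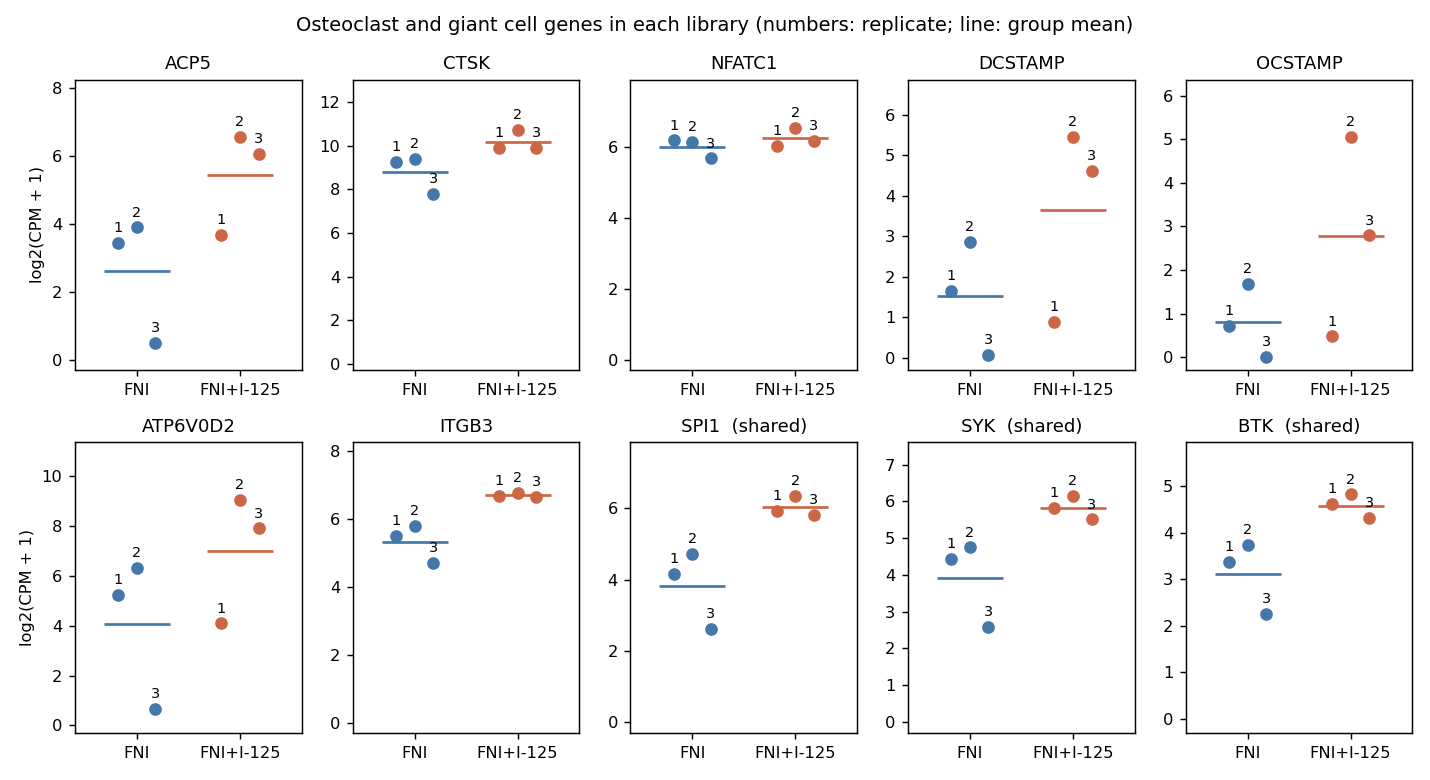
Level of each gene in log2(CPM + 1) in the 3 FNI and the 3 FNI+I-125 libraries, with replicate numbers beside the points and a line at each group mean. SPI1, SYK, BTK, ITGB3 and CTSK are separated between the groups, whereas DCSTAMP, OCSTAMP, ATP6V0D2 and ACP5 are high in FNI+I-125 replicates 2 and 3 and not in replicate 1.

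SPI1 encodes PU.1, the transcription factor that commits precursors to the myeloid lineage. Its level was 16.9, 25.2 and 5.14 CPM in FNI nerves, against 59.5, 80.7 and 55.1 CPM in FNI+I-125 nerves. The lowest FNI+I-125 library lay above the highest FNI library. The group means were 15.7 ± 10.1 and 65.1 ± 13.7 CPM (SD, n = 3 each), 4.14-fold apart, with a log2 fold change of 2.05 (SE 0.56, edgeR adjusted p = 0.280).

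SYK, the kinase that docks on phosphorylated ITAM adaptors, had 20.5, 25.9 and 4.96 CPM in FNI nerves against 56.1, 70.5 and 44.6 CPM in FNI+I-125 nerves. The groups were again apart, with a log2 fold change of 1.74 (SE 0.58, edgeR adjusted p = 0.280). BTK, a Tec family kinase that acts with SYK on phospholipase C gamma, had 9.37, 12.4 and 3.78 CPM against 23.5, 27.4 and 19.1 CPM. It did not overlap either, and its log2 fold change was 1.45 (SE 0.44, edgeR adjusted p = 0.280). DESeq2 gave adjusted p-values of 0.0113 for SPI1, 0.04998 for SYK and 0.0410 for BTK, and the log2 fold change of BTK, 1.44, was below 1.5.

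FNI replicate 3 was the lowest of the 6 libraries for all 10 genes. Without it, the log2 fold changes of SPI1, SYK and BTK were 1.62, 1.28 and 1.08. Neutrophils carry these genes as well, and without FNI+I-125 replicate 1, the library with the most neutrophil transcripts, the values were 2.11, 1.75 and 1.45. The other libraries still held 16.2 to 170 CPM of the neutrophil list, so this setting does not take neutrophils out. B cells also use SYK and BTK, and the summed level of 7 B cell markers ran from 7.61 to 17.7 CPM in the FNI libraries and from 9.13 to 19.4 CPM in the FNI+I-125 libraries. The part of neutrophils or B cells in the differences of SPI1, SYK and BTK was not tested. In bulk tissue, more cells of a type and more RNA per cell cannot be told apart.

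ITGB3, the beta chain of the integrin by which osteoclasts grip their substrate, had the narrowest spread among the FNI+I-125 libraries of these genes relative to its mean. It stood at 43.8, 54.0 and 25.2 CPM in FNI nerves, and with the seed at 100.01, 107.9 and 99.3 CPM. Its log2 fold change was 1.32 (SE 0.28), with the smallest p of the 10 genes (edgeR adjusted p = 0.280). DESeq2 gave an adjusted p of 0.00303 with a log2 fold change of 1.31, below 1.5. Platelets and endothelial cells carry this integrin as well. Of the platelet list, GP1BA, GP9 and TREML1 had 0 to 5 counts per library, and ITGA2B had 12.3 to 19.0 CPM against 9.92 to 21.6 CPM. PPBP was higher in all 3 FNI+I-125 libraries (2.496 to 12.4 CPM against 0.118 to 0.441), and the endothelial list had a median log2 fold change of -0.40. The part of these cells in the ITGB3 difference was not tested.

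CTSK encodes cathepsin K, the protease with which osteoclasts degrade collagen. It was read at 610, 666 and 219 CPM in FNI nerves against 955, 1680 and 959 CPM with the seed, without overlap. The log2 fold change was 1.27 (SE 0.48, edgeR adjusted p = 0.286), and 0.89 without FNI replicate 3. Fibroblasts can make cathepsin K. The fibroblast list had 7 of 8 genes higher with a median log2 fold change of 0.37 and none at an unadjusted p under 0.05. The most abundant fibroblast marker, COL1A1, was highest in FNI+I-125 replicate 1 (76521 CPM) and CTSK in replicate 2. Both were lowest in FNI replicate 3, at 23012 CPM for COL1A1. The part of fibroblasts in the CTSK difference was not tested.

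DCSTAMP and OCSTAMP are membrane proteins needed for the fusion of osteoclast precursors, and giant cells use such fusion proteins as well. DCSTAMP had 2.17, 6.30 and 0.0591 CPM in FNI nerves, against 0.850, 42.7 and 23.6 CPM with the seed. The counts behind these levels were 37, 100 and 1 against 13, 701 and 402. FNI+I-125 replicate 1 therefore lay below FNI replicates 1 and 2, and replicates 2 and 3 lay above all FNI libraries. The log2 fold change of 2.98 had an SE of 1.61 (edgeR adjusted p = 0.357).

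OCSTAMP followed the same order of libraries, with 11, 35 and 0 counts in FNI nerves against 6, 529 and 101 counts with the seed. In CPM these were 0.644, 2.20 and 0 against 0.392, 32.2 and 5.93, and a count of 0 at this depth allows up to 3 counts, for counting error only. Its log2 fold change was the largest of the 10 genes, 3.76 (SE 1.79, edgeR adjusted p = 0.325), and fell to 1.70 without FNI+I-125 replicate 2. ATP6V0D2, the proton pump subunit that is enriched in osteoclasts and takes part in fusion, had 37.2, 79.6 and 0.591 CPM against 16.1, 531 and 240 CPM. The library order was that of DCSTAMP and OCSTAMP, and the log2 fold change was 2.74 (SE 1.69, edgeR adjusted p = 0.405), or 1.67 without FNI+I-125 replicate 2.

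ACP5, the tartrate-resistant acid phosphatase by which osteoclasts are stained, had 9.96, 14.0 and 0.414 CPM in FNI nerves against 11.8, 94.2 and 66.2 CPM with the seed. FNI+I-125 replicate 1 fell between FNI replicates 1 and 2. The log2 fold change was 2.82 (SE 1.23, edgeR adjusted p = 0.306). For ACP5, DCSTAMP, OCSTAMP and ATP6V0D2 the FNI+I-125 group thus spanned from the FNI range to several times above it. Leaving out FNI+I-125 replicate 1 brought ACP5, DCSTAMP and OCSTAMP under an unadjusted edgeR p of 0.05, while their edgeR adjusted p was 0.502. In that setting 6% of all genes were higher at that unadjusted p.

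NFATC1, the transcription factor that drives the final steps of osteoclast formation, differed little. It had 71.2, 68.5 and 49.8 CPM in FNI nerves against 63.7, 91.2 and 70.3 CPM with the seed, so the groups overlapped. The log2 fold change was 0.25 (SE 0.20, edgeR adjusted p = 0.519), the smallest of the 10 genes. It was 0.057 without FNI+I-125 replicate 2 and 0.087 without FNI replicate 3. Many cell types make NFATC1, T cells and endothelial cells among them. Its RNA level does not show whether the protein is in the nucleus, where it acts.

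**Figure D2:**
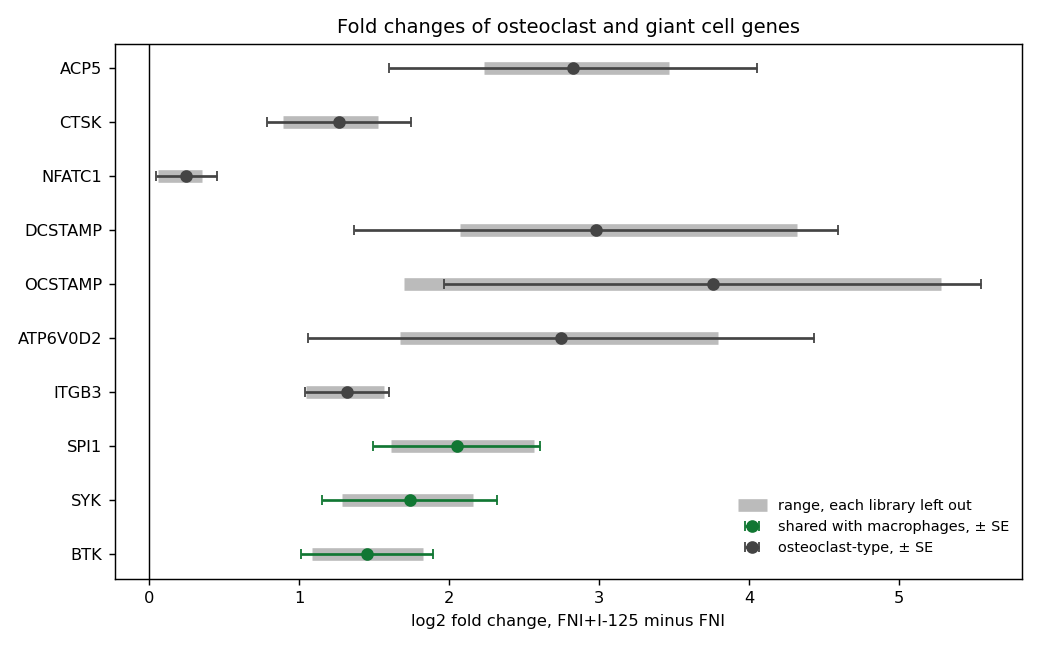
Log2 fold change of FNI+I-125 over FNI for each gene with its standard error, from edgeR, with the osteoclast-type genes and the genes shared with macrophages in different colours. OCSTAMP has the largest value (3.76) and among the widest errors, and ITGB3 (1.32) and SPI1 (2.05) are far from 0 relative to theirs.

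The exact permutation test over the 6 libraries cannot give a two-sided p below 0.1 with 3 against 3. On log2(CPM + 1), that p of 0.1 was reached by SPI1, SYK, BTK, ITGB3 and CTSK in the exact permutation test. ACP5 gave 0.2, DCSTAMP, OCSTAMP and ATP6V0D2 gave 0.3 each and NFATC1 gave 0.5 in the same exact permutation test.

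The order of the libraries was the same for some of the genes. SPI1, SYK, BTK and ITGB3 ranked the 6 libraries alike, with all 3 FNI+I-125 libraries on top and replicate 1 second. DCSTAMP, OCSTAMP and ATP6V0D2 ranked them alike too, with FNI+I-125 replicate 1 second from the bottom. ACP5, CTSK and NFATC1 each had an order of their own. FNI+I-125 replicates 2 and 3 were the 2 highest libraries for 5 of the 7 osteoclast-type genes, ACP5, CTSK, DCSTAMP, OCSTAMP and ATP6V0D2, and for 0 of the 3 shared genes, against 7.50% of all genes tested. This order was noticed after the values had been seen and is a description.

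Since macrophages carry many of these genes at a low level, each gene was also set against the macrophage markers of its own library. Of 12 markers listed, 9 were in the files, among them CD68, CSF1R and C1QC. Their mean level was 5.99, 6.39 and 4.32 on the log2(CPM + 1) scale in FNI nerves, against 7.21, 7.23 and 6.67 with the seed. All 9 had a higher mean with the seed, 2 of them at an unadjusted p under 0.05 (9.23% of all genes), with a median log2 fold change of 1.10. CD68, a lysosomal protein of macrophages that osteoclasts carry too, had 91.2, 133 and 16.5 CPM against 179, 497 and 309 CPM. CSF1R, the receptor for CSF1, had 219, 276 and 77.2 CPM against 336, 345 and 297 CPM. C1QC, a chain of the first complement component, overlapped between the groups (94.0 to 240.2 CPM against 133 to 281 CPM).

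Relative to these markers, SPI1 was higher by 0.73 on the log2 scale, without overlap between the groups (exact permutation p = 0.1, adjusted p = 0.333 over the 10 genes). SYK was higher by 0.45, also without overlap (exact permutation p = 0.1, adjusted p = 0.333). BTK differed by -0.01 (exact permutation p = 1), ITGB3 by -0.11 (exact permutation p = 0.9) and CTSK by -0.10 (exact permutation p = 0.7), each within the spread of the libraries. NFATC1 was lower relative to the macrophage markers, by -1.23 and without overlap (exact permutation p = 0.1, adjusted p = 0.333). Its own level on that scale was higher by 0.25, so this value mostly restates the higher level of the markers and shows no fall of NFATC1. The adjusted value of 0.333 was the smallest among the 10 genes. Against CSF1R alone in place of the list, the differences were 1.24 for SPI1, 0.96 for SYK and -0.71 for NFATC1, the last with an exact permutation p of 0.2. Without FNI replicate 3 that of NFATC1 was -0.76.

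The fusion and enzyme genes could be read on this scale only in part. FNI replicate 3 had 1 count of DCSTAMP, 0 of OCSTAMP, 7 of ACP5 and 10 of ATP6V0D2, so its relative values of these genes are largely set by the pseudocount of 1. DCSTAMP and OCSTAMP were below 1 CPM in FNI+I-125 replicate 1 as well, and no difference between the groups is read for them. ACP5 stood at -2.54 and -2.49 relative to the macrophage markers in FNI replicates 1 and 2, and with the seed at -3.53, -0.66 and -0.60. ATP6V0D2 stood at -0.74 and -0.06 in the same FNI pair, and with the seed at -3.11, 1.82 and 1.24. For both genes FNI+I-125 replicate 1 was below these FNI libraries and replicates 2 and 3 were above them. Over all 6 libraries the difference was 1.35 for ACP5 (exact permutation p = 0.3) and 1.47 for ATP6V0D2 (exact permutation p = 0.5). With 1 library left out it ran from 0.85 (without FNI+I-125 replicate 3) to 2.32 (without FNI+I-125 replicate 1) for ACP5, and from 0.38 (without FNI replicate 3) to 3.01 (without FNI+I-125 replicate 1) for ATP6V0D2.

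**Figure D3:**
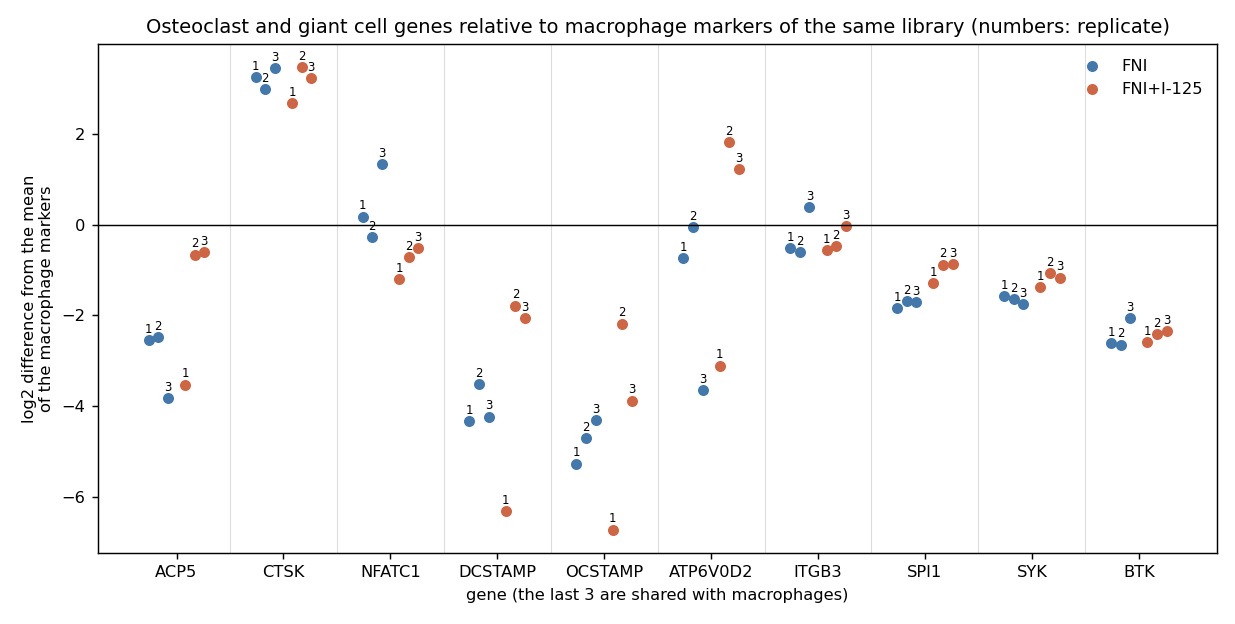
Level of each gene minus the mean level of the 9 macrophage markers of the same library, on the log2(CPM + 1) scale, with points for the libraries and their replicate numbers. SPI1 and SYK are higher and NFATC1 lower in the FNI+I-125 libraries without overlap, and FNI+I-125 replicate 1 lies below replicates 2 and 3 for ACP5 and ATP6V0D2, while the points of DCSTAMP and OCSTAMP in FNI replicate 3 and FNI+I-125 replicate 1 rest on 0 to 13 counts and are set mainly by the pseudocount.

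The ligands and receptors that start osteoclast formation were read next. Over all 14003 genes tested, 7161 were higher and 9.23% were higher at an unadjusted p under 0.05, and the counts of each list below stand beside these. TNFSF11, which encodes RANKL, had 3, 4 and 0 counts in FNI nerves against 12, 3 and 47 counts with the seed, and did not pass the filter. TNFRSF11A, which encodes RANK, had 27.1 to 32.5 CPM without the seed against 29.5 to 42.7 CPM with it, at a log2 fold change of 0.28 (edgeR adjusted p = 0.402). TNFRSF11B encodes osteoprotegerin, the decoy that binds RANKL and blocks it. It had 5.56, 3.46 and 3.72 CPM against 12.2, 8.46 and 6.52 CPM, without overlap, and a log2 fold change of 1.09 (SE 0.34, edgeR adjusted p = 0.280).

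CSF1, the growth factor of macrophages and osteoclast precursors, had a log2 fold change of 0.95 (SE 0.44, edgeR adjusted p = 0.317). Its receptor gene CSF1R had 0.77 (SE 0.45, edgeR adjusted p = 0.380) although the groups did not overlap, and IL34, the other ligand of that receptor, had -0.26 (edgeR adjusted p = 0.535). Of the 5 genes of these axes that were tested, 4 were higher and 1, TNFRSF11B, was so at an unadjusted p under 0.05, against 9.23% of all genes.

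All 7 genes in the files of the list of ITAM adaptors and costimulatory receptors were higher, 4 of them at an unadjusted p under 0.05 (9.23% of all genes), with a median log2 fold change of 2.02. CLEC5A, a myeloid receptor that pairs with the adaptor DAP12, had 7.79, 21.3 and 2.84 CPM against 42.4, 96.8 and 63.1 CPM, with a log2 fold change of 2.66 (SE 0.75). FCER1G, the Fc receptor gamma chain that carries an ITAM, had 1.84 (SE 0.61). PILRA had 2.02 (SE 0.62), but it is an inhibitory receptor with an ITIM and does not do what the list's name says. Beside it the list holds 6 genes, 3 of them at that p. OSCAR and SIGLEC15, receptors named for or used by osteoclasts, were chosen after their values were seen. OSCAR had 5, 16 and 0 counts in FNI nerves against 0, 180 and 83 counts with the seed. SIGLEC15 had 6.62, 16.9 and 0.414 CPM against 6.14, 89.1 and 25.4 CPM. Both had the library order of a high replicate 2, a lower replicate 3 and a replicate 1 within the FNI range.

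Among 22 genes of signalling downstream of RANK and the ITAM receptors, 18 were higher and the median log2 fold change was 0.28. An unadjusted p under 0.05 was reached by 7 higher genes and by 1 lower gene, PIK3R1, where 9.23% of all genes tested were higher and 7.73% lower at that p. VAV3, an exchange factor for small GTPases, had 19.4, 18.6 and 13.2 CPM against 41.2, 27.5 and 41.0 CPM (log2 fold change 1.10, SE 0.24). PLCG2, the phospholipase downstream of SYK and BTK, had a log2 fold change of 0.74 (SE 0.17), and the adaptor GRB2 had 0.43 (SE 0.12). PIK3R1, a regulatory subunit of PI3 kinase, had -0.78 (SE 0.28).

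Osteoclastogenic transcription factors were higher for 11 of 13 genes, 4 of them at an unadjusted p under 0.05 (9.23% of all genes), with a median log2 fold change of 0.35. TFEC, a relative of MITF found in macrophages, had 2.17 (SE 0.64), with 6.09, 10.8 and 1.65 CPM against 33.6, 27.6 and 22.1 CPM. PRDM1, which encodes the repressor BLIMP1, had 2.56 (SE 0.78), and FOSL1, an AP-1 subunit with 4 to 49 counts per library, had 1.96 (SE 0.74).

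Inhibitors of osteoclast differentiation were higher as well, 11 of 11, of which 6 at an unadjusted p under 0.05 (9.23% of all genes), with a median log2 fold change of 0.51. IFNGR1, a chain of the interferon gamma receptor, had 0.51 (SE 0.15). PTPN6, the phosphatase SHP-1, had 1.69 (SE 0.62). The IFNGR1 levels were 71.8, 75.1 and 69.2 CPM against 123, 94.2 and 89.5 CPM, without overlap.

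The machinery of acid secretion and resorption had the highest share of its genes past an unadjusted p of 0.05 among the pathway lists, 14 of 23, all higher, against 9.23% of all genes. In all, 22 of the 23 genes were higher, with a median log2 fold change of 0.87. SNX10, a sorting nexin needed for the ruffled border, had 21.7, 31.7 and 13.5 CPM against 46.5, 107.6 and 75.7 CPM (log2 fold change 1.78, SE 0.42). The proton pump subunits ATP6V0D1, the widely expressed relative of ATP6V0D2, and ATP6V1A had 0.52 (SE 0.16) and 0.87 (SE 0.26). Of the 14 genes, 10 encode proton pump subunits or accessory proteins, which lysosomes of other cells use too. FNI+I-125 replicates 2 and 3 were the 2 highest libraries for 19 of the 23 genes.

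Some other genes of that machinery were picked after their values were seen. MMP9, a gelatinase of osteoclasts and neutrophils, had 39.4, 78.7 and 1.24 CPM against 89.8, 710 and 503 CPM, without overlap (log2 fold change 3.45, SE 1.42, edgeR adjusted p = 0.296). CA2, the carbonic anhydrase that supplies protons, had 16.4, 26.3 and 4.73 CPM against 7.78, 189 and 82.9 CPM (log2 fold change 2.56, SE 1.148, edgeR adjusted p = 0.313). CALCR, the calcitonin receptor of mature osteoclasts, had 0 counts in 5 libraries and 3 in FNI+I-125 replicate 2. CLCN7, the chloride exchanger of the ruffled border, had 0 to 4 counts, and both were left out by the filter. Whether so few CLCN7 counts come from its expression or from its gene model was not tested.

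**Figure D4:**
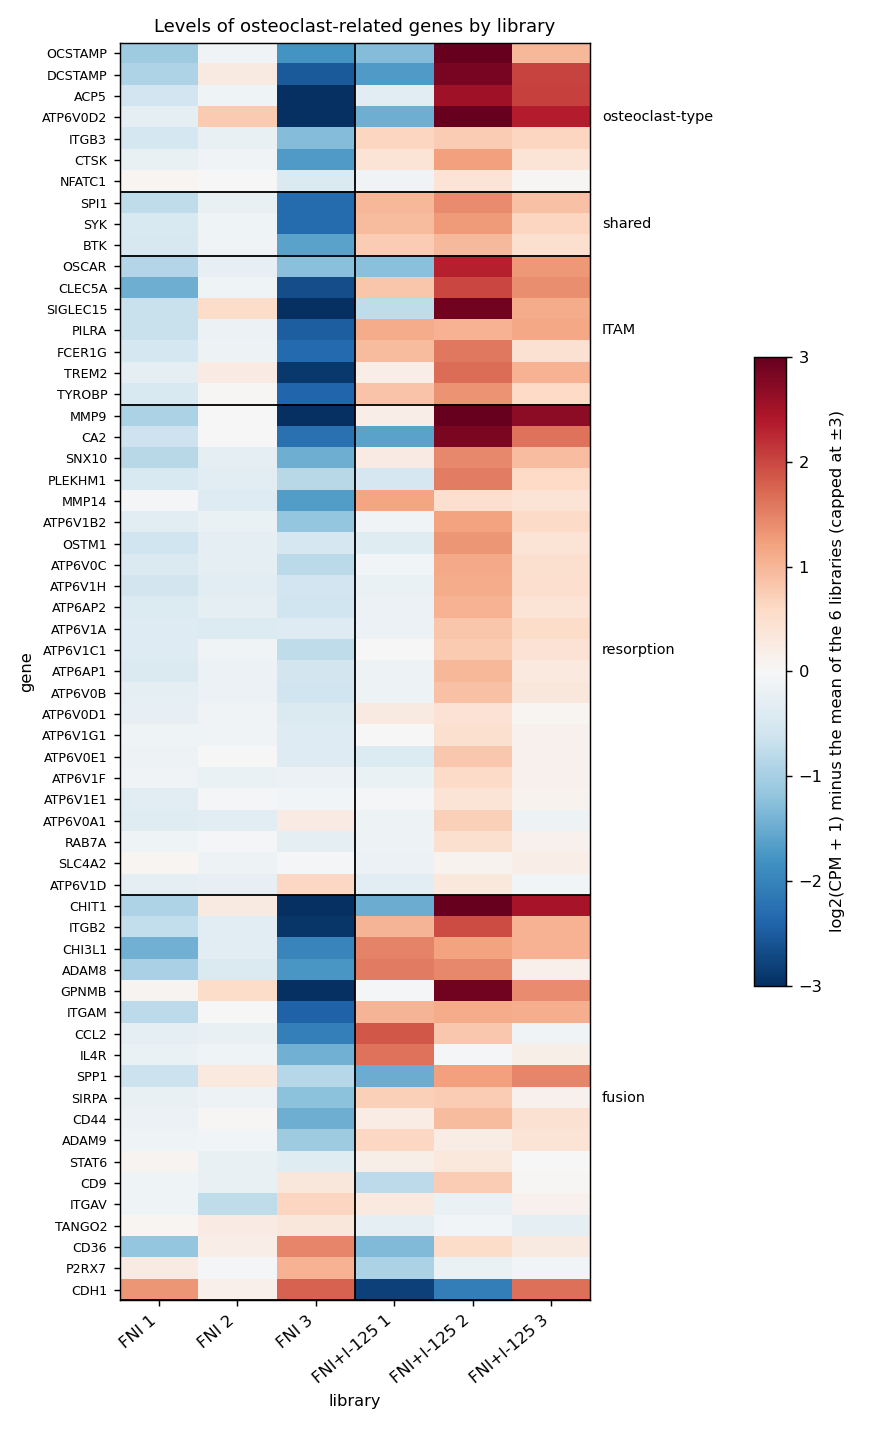
Colour map of osteoclast-related genes (rows) in the 6 libraries (columns), as log2(CPM + 1) minus the mean of the 6 libraries, capped at 3 in each direction, with a line between the groups. FNI replicate 3 is low for most genes, and FNI+I-125 replicate 1 is high for SPI1, SYK and BTK but not for DCSTAMP, OCSTAMP and ATP6V0D2.

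Genes of macrophage fusion and giant cells were higher for 15 of 19, with 7 at an unadjusted p under 0.05 (9.23% of all genes) and a median log2 fold change of 1.02. CHI3L1, a secreted chitinase-like protein of activated macrophages, had 151, 325 and 103 CPM against 1145, 952 and 850 CPM (log2 fold change 2.35, SE 0.46). ADAM8 had 2.19 (SE 0.51), and ITGB2, the beta chain of leukocyte integrins, had 2.40 (SE 0.69). 1 gene was lower at that p, TANGO2, which has no known part in cell fusion.

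The counts of other cell types were read from marker lists. Neutrophil markers were higher for 6 of 7 genes, none at an unadjusted p under 0.05. S100A8, S100A9 and CSF3R had 310, 508 and 337 CPM in FNI+I-125 replicate 1 and at most 35.4 CPM in any other library. T cell markers were higher for 8 of 8 genes, 1 at an unadjusted p under 0.05 (CD5) where 9.23% of all genes were, with summed levels of 4.02 to 28.7 CPM against 25.1 to 81.2 CPM. B cell markers were split, with 5 of 7 higher, none of these at an unadjusted p under 0.05. Of the 2 platelet markers tested, PPBP was higher at an unadjusted p under 0.05 and ITGA2B had 12.3 to 19.0 CPM against 9.92 to 21.6 CPM. Endothelial markers were lower for 6 of 7 genes, 2 at an unadjusted p under 0.05, where 7.73% of all genes were lower.

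Schwann cell markers were lower for 8 of 8 genes, 2 at an unadjusted p under 0.05 (7.73% of all genes were lower), with a median log2 fold change of -1.81. All 7 skeletal muscle markers tested were higher at an unadjusted p under 0.05 (9.23% of all genes), but FNI+I-125 replicate 3 had 52.5 CPM in sum, below all FNI libraries. The 5 salivary gland markers tested were lower, 1 at an unadjusted p under 0.05 (7.73% of all genes were lower). Library sizes recomputed without the muscle and gland genes left the log2 fold changes of the 10 genes in the same direction and the counts of 2 osteoclast-type and 3 shared genes unchanged. That setting takes only the listed markers out of the library sizes. Other transcripts of muscle and gland stay in, so it cannot show whether such tissue bears on the differences.

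Bone cells were sought because osteoclasts work on bone. SP7, DMP1, PHEX and SOST, which define osteoblasts and osteocytes, had 0 to 21 counts per library and were not tested. Of the 4 bone markers tested, 3 were higher, 2 of these (IBSP and ALPL) at an unadjusted p under 0.05, and BGLAP was lower at that p. IBSP, named after its values were seen, had 0.0591 to 1.26 CPM against 3.66 to 27.4 CPM, without overlap. BGLAP had 12.65, 158 and 1.30 CPM in FNI nerves against 0.528 to 1.503 CPM with the seed, and the groups overlapped. Its highest level was in FNI replicate 2, the library with the most salivary gland transcripts. Of all genes tested, 9.23% were higher and 7.73% lower at that p. ALPL, alkaline phosphatase, had 4.37 to 6.36 CPM against 5.90 to 29.0 CPM, and RUNX2 had 29.7 to 72.2 CPM against 36.1 to 122 CPM. The part of any of these cell types in the differences of the 10 genes was not tested.

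**Figure D5:**
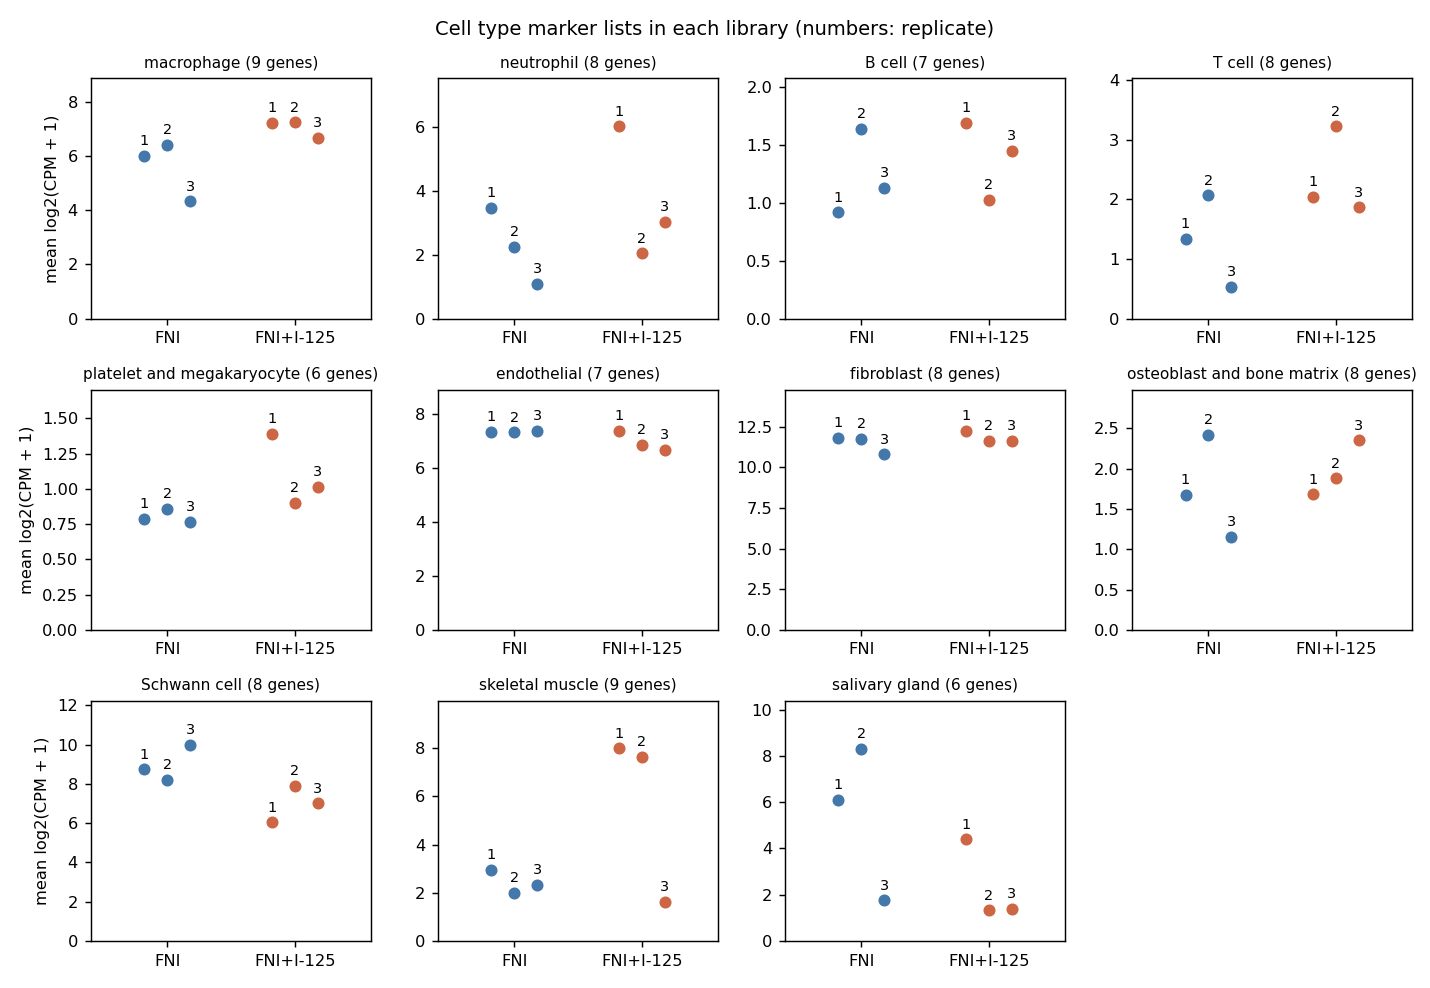
Mean level of each cell type marker list, in log2(CPM + 1), in the 3 FNI and 3 FNI+I-125 libraries, with replicate numbers beside the points. The macrophage list is higher in all 3 FNI+I-125 libraries, the neutrophil list stands out in FNI+I-125 replicate 1, and the Schwann cell list is highest in FNI replicate 3.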

How the data were processed

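The authors deposited 1 file of raw counts per library, whole numbers per gene without normalization. They sequenced mRNA from stranded libraries. The submitters' processing notes name HISAT2 and the rabbit build OryCun2.0, and the counting program is not given in the sources used here. All 6 files list the same 17396 genes. RefSeq symbols of assembly mOryCun1.1 were given to 542 of 2992 LOC identifiers, and 25 identifiers turned into dates (0.188% of counts) were kept unnamed. No sequences or coordinates were used.

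Counts were fitted in R 4.3.3 with edgeR 4.0.16 (glmQLFit, glmQLFTest, TMM, filterByExpr with a minimum count of 10), FNI+I-125 against FNI, two-sided, with Benjamini-Hochberg adjustment over 14003 genes. The biological coefficient of variation was 43%. DESeq2 1.42.0 and limma-voom (limma 3.58.1), other normalizations and filters, leaving out single libraries and a replicate block were alternatives. Single values of log2(CPM + 1) were compared by an exact permutation test. The scripts were tested on simulated data. Text names all 10 genes, all genes of the RANKL and CSF1 axes, the 3 genes with the smallest p of each other pathway list and the 3 most abundant of each marker list, and others as chosen after their values were seen. A few of the genes so selected were left out of the text. The 10 genes and the lists were chosen with earlier results of these data known, and the lists were written from general knowledge.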

Additional observations from a re-analysis of the deposited data

How the results depend on the processing

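No log2 fold change of the 10 genes changed sign under any alternative that was run. Over all genes, edgeR called 0 at an adjusted p under 0.05 and a log2 fold change of 1.5 (2375 at an unadjusted p under 0.05), limma-voom 0 and DESeq2 399 (236 higher, 163 lower). Leaving out 1 library gave 0 to 40 calls, with 40 without FNI+I-125 replicate 3. The count of osteoclast-type genes at an unadjusted p under 0.05, 2 in edgeR, was 5 with DESeq2 and 1 to 4 with 1 library left out. It was 1 without FNI replicate 1, FNI+I-125 replicate 2 or FNI+I-125 replicate 3, and 4 without FNI+I-125 replicate 1. The share of all genes higher at that p was 9.23% in edgeR, 11.5% with DESeq2 and 6.00% without FNI+I-125 replicate 1. It was 6.02% without FNI+I-125 replicate 2, 8.2% without FNI+I-125 replicate 3 and 6.2% without FNI replicate 1. The count of shared genes, 3, was 1 to 3, with 1 without FNI+I-125 replicate 2. Adjusted p-values over all alternatives ran from 0.0113 to 0.502 for SPI1, 0.04998 to 0.502 for SYK, 0.0410 to 0.502 for BTK, 0.00303 to 0.502 for ITGB3, 0.0858 to 0.502 for CTSK and for ACP5, 0.181 to 0.597 for DCSTAMP, 0.132 to 0.652 for OCSTAMP, 0.316 to 0.663 for ATP6V0D2 and 0.495 to 0.898 for NFATC1. The cause of these changes was not tested.

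Relative to the macrophage markers, some small differences changed sign. Against CSF1R alone they were 0.41 for CTSK, 0.41 for ITGB3 and 0.51 for BTK, and with a pseudocount of 0.25 BTK had 0.042, DCSTAMP 1.09 and OCSTAMP 1.10 in place of 0.64 and 0.50. With 1 library left out they ran from -0.28 to 0.12 for CTSK, -0.16 to 2.11 for DCSTAMP, -0.54 to 1.74 for OCSTAMP, -0.29 to 0.21 for ITGB3 and -0.11 to 0.18 for BTK. Of the genes at an unadjusted p under 0.05, 1293 were higher and 1082 lower, and 1008 and 1379 with upper-quartile normalization. Same-numbered libraries were not closest to each other (correlations of 0.05, -0.19 and -0.14, and 0 libraries closest to their own number). With 3 libraries per group this cannot show whether same-numbered animals were handled together, so pairing by number is not known. With a replicate block, 0 genes were called. In that setting 2 osteoclast-type and 3 shared genes were higher at an unadjusted p under 0.05, against 9.03% of all genes. A planned search of promoters for motifs was not run.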

Other observations

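A few genes of macrophages with large lysosomes and of bone matrix, chosen after their values were seen, were read beside the fusion genes. CHIT1, the chitinase of lipid-laden macrophages, had 18.1, 42.6 and 2.01 CPM in FNI replicates 1, 2 and 3 and 11.96, 338 and 201 CPM in FNI+I-125 replicates 1, 2 and 3 (edgeR log2 fold change 3.14, SE 1.42, adjusted p = 0.315). GPNMB, a glycoprotein of stressed lysosomes and of osteoclasts, had 571, 795 and 16.7 CPM against 528, 3999 and 1450 CPM (log2 fold change 2.11, SE 1.33). SPP1, osteopontin, had 246, 469 and 214 CPM against 136, 901 and 1071 CPM. All 3 were within or below the FNI range in FNI+I-125 replicate 1 and above it in replicates 2 and 3. IBSP, bone sialoprotein, had 6, 20 and 1 counts against 56, 274 and 467 counts, without overlap (edgeR log2 fold change 4.83, SE 1.16, adjusted p = 0.280).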
